A study of Mus musculus with 6 samples.

Results

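The antioxidant and glutathione enzymes described here are 40 genes chosen by name, all of them present among the 54532 genes of the count table, and 39 of them had enough reads to be tested among 14774 genes. They comprise superoxide dismutases and catalase, glutathione peroxidases, peroxiredoxins, thioredoxins and their reductases, glutaredoxins, glutathione S-transferases, the enzymes that make and recycle glutathione, a quinone reductase and the haem oxygenases. By the place where their proteins are known to work, 6 were counted as mitochondrial (Sod2, Prdx3, Txn2, Txnrd2, Glrx2 and Glrx5). Another 6 were counted as present in mitochondria and elsewhere (Gpx1, Gpx4, Prdx5, Gsr, Gstk1 and Mgst1) and 28 as working mainly elsewhere. The question was whether their mRNA levels differed between hearts that overexpressed HINT2, a mitochondrial nucleotide hydrolase, and hearts that did not, and whether the mitochondrial enzymes behaved like the rest.

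RNA was sequenced from the left ventricle (LV) of male mice 4 weeks after aortic banding (AB), an operation that loads the heart with pressure and that every animal of both groups received at 8 to 10 weeks of age. The TG group held 3 libraries of the genotype HINT2CTG-Myh6Cre, in which a HINT2 gene behind the CAG promoter was switched on in cardiomyocytes by Cre under the Myh6 promoter after tamoxifen at 5 mg/kg/d for 7 days. The NTG group held 3 libraries of the genotype C57BL/6J, without the transgene. The sources used here do not state that NTG mice carried Cre or were given tamoxifen, so effects of these cannot be told apart from those of HINT2, and unoperated hearts were not analysed here.

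Reactive oxygen species arise as by-products of respiration, above all in mitochondria, and cardiomyocytes are among the cells richest in mitochondria. Superoxide dismutases turn superoxide into hydrogen peroxide, which catalase, the glutathione peroxidases and the peroxiredoxins then reduce to water. Most glutathione peroxidases draw electrons from glutathione and most peroxiredoxins from thioredoxin. Both carriers are restored at the expense of NADPH by glutathione reductase and thioredoxin reductases. Many of these genes are textbook targets of the transcription factor Nrf2, which binds the antioxidant response element.

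Total counts on genes lay between 14863568 and 17581220 per library, and the 40 genes together took 0.488% to 0.551% of them. Hint2 itself had 545 and 559 counts in NTG 2 and NTG 3 and 793, 828 and 859 counts in TG 1, TG 2 and TG 3. In the library labelled NTG 1, however, Hint2 had 12 counts, which went against the other libraries of its label. For many of the genes below, the fold change without this library is given as well. On the first principal component of all genes (52.3% of the variance) NTG 1 lay at -5.08, nearer to TG 2 at -10.7 than to NTG 2 at 55.7 or NTG 3 at 29.3. Defining markers of cardiomyocytes, fibroblasts, macrophages, endothelium, smooth muscle, red cells and neutrophils all had counts above 0 in every library, as LV tissue should hold. In such bulk RNA, fewer cells of a type and less RNA per cell cannot be told apart.

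No gene of the 14774 was called (0%) by the main test, edgeR's quasi-likelihood test, and hence none of the 39 members. A call needed an adjusted p under 0.05 together with a difference of more than 0.5 on the log2 scale. The smallest adjusted p of any gene was 0.196, and with 3 libraries against 3 an exact permutation test of a single gene cannot go below 0.1. DESeq2, the tool of the study itself, called 2 members higher in TG, Glrx5 and Mgst3, where it called 1.54% of all genes tested higher. It called 2 members lower in TG, Gpx3 and Sod3, where it called 2.4% of all genes lower. By limma-voom 0 members were called.

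At an unadjusted p under 0.05 in edgeR, 6 of the 39 members (15.4%) were higher in TG beside 8.83% of all genes, and 6 (15.4%) were lower beside 9.76% of all genes. These 12 became 20 without NTG 1, 8 without NTG 3 and 7 without TG 1. Counted by libraries that did not overlap, 7 members (17.9%) lay higher in every TG library than in every NTG library, beside 11.2% of all genes, and 8 (20.5%) lay lower, beside 12.3%. Across the 39, 20 had a higher and 19 a lower mean in TG, and their median log2 fold change was 0.06 against -0.01 over all genes. The enzymes of this defence thus lay on both sides of 0 and no common direction was seen.

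**Figure D1:**
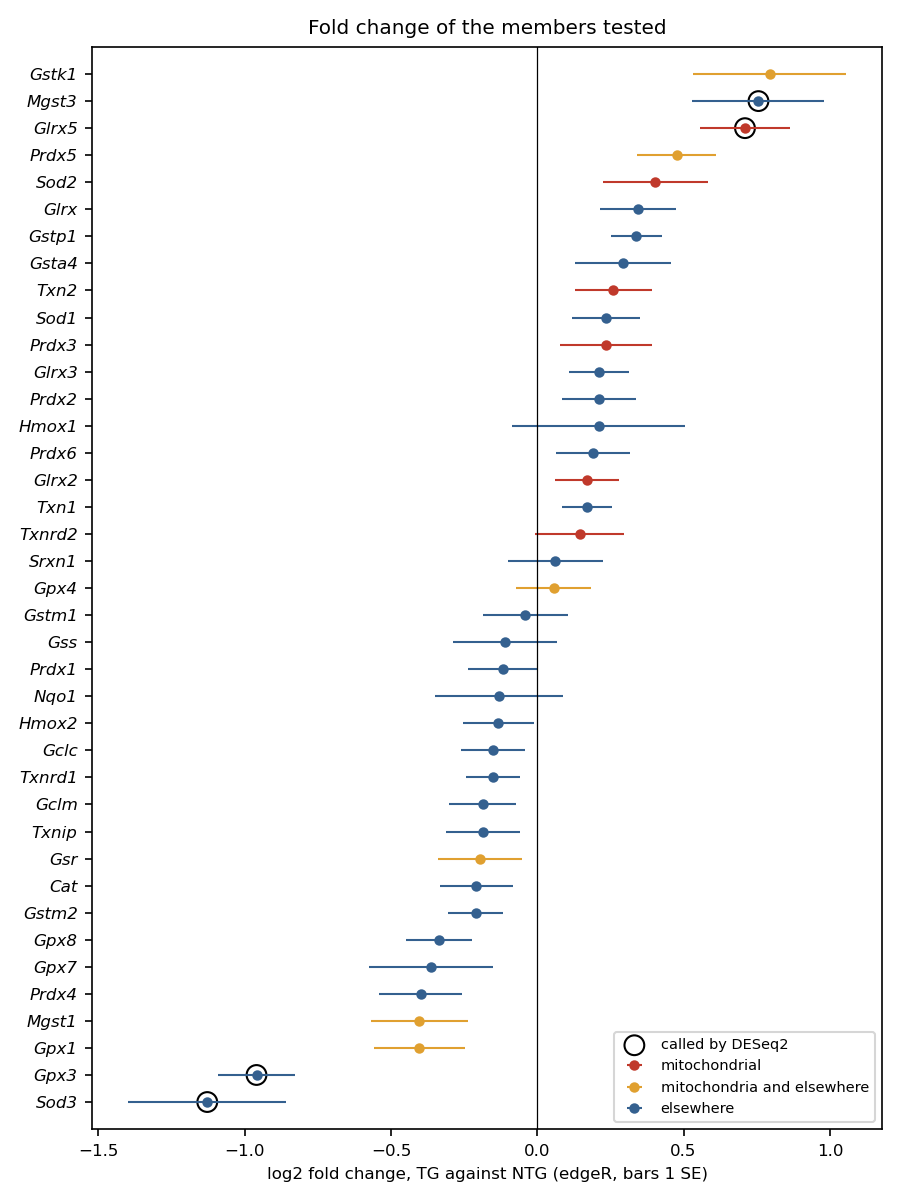
Log2 fold change of TG against NTG from edgeR for the 39 members tested, with bars of 1 SE, coloured by place and ringed where DESeq2 made a call. Sod3 (-1.13) and Gpx3 (-0.96) lie far below 0, the 6 mitochondrial members lie between 0.14 and 0.71, and Gstk1 (0.79) is the highest with a wide bar.

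The promoters of these genes are shown because Nrf2 is the shared regulator named for them in textbooks. RefSeq windows of 250 bases before to 50 bases after the start (GRCm38.p6) were held for 34 of the 40 members, and the core of the antioxidant response element, TGACNNNGC searched on both strands, was found in 6 of these (17.6%), against 14% of the 27025 genes with a window. The 6 were Sod1, Prdx1, Srxn1, Txnrd1, Gclm and Mgst1, and 0 of the 6 mitochondrial members held it. Gclc, Gsr, Hmox1, Sod3, Prdx6 and Gsta4 had no window, so nothing can be said of theirs. In the stretches below, which lie before a RefSeq start on the + strand of GRCm38, the match is in capitals and reads on the opposite strand. Txnrd1 has 3 RefSeq windows, and its stretch precedes only 1 of the 3 starts and lies inside the gene as the table gives it (chr10:82833951-82897712).
Sod1, chr16:90220691-90220729: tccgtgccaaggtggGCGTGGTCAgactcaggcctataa
Prdx1, chr4:116685451-116685489: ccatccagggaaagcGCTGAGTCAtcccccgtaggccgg
Txnrd1, chr10:82859099-82859137: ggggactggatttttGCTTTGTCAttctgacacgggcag
Gclm, chr3:122245408-122245446: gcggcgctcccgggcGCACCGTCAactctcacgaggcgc

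Of the 6 genes with this match, Sod1 and Srxn1 had a higher mean in TG (log2 fold changes 0.24 and 0.06) and Prdx1, Txnrd1, Gclm and Mgst1 a lower mean (-0.12, -0.15, -0.19 and -0.40), and none was called by edgeR or DESeq2. Stretches of 100 bases before the RefSeq start are shown for comparison for Gpx3, Glrx5 and Mgst3, members that DESeq2 called and in whose windows none of the 3 motifs searched was found. Sod3, which DESeq2 called as well, had no window and was not searched. The other 2 motifs were the core bound by NRF1, a regulator of nuclear genes for mitochondrial proteins, and TCAAGGTCA, bound by oestrogen-related receptors. The NRF1 motif was held by Gpx4 and Gss (5.88% of 34, against 5.19% of all genes), and the TCAAGGTCA motif by 0 members, against 0.466% of all genes. A match or its absence describes only the letters of the window. The stretches below run from base -100 to -1 for Glrx5 and Mgst3 and from -182 to -83 for Gpx3, whose stretch lies inside the gene as the table gives it. They are given 5′ to 3′ along each gene, on the + strand for Gpx3 and Glrx5 and on the - strand for Mgst3, with no part in capitals.
Gpx3, chr11:54902672-54902771: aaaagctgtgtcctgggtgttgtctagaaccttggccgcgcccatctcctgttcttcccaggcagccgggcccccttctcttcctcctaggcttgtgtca
Glrx5, chr12:105032518-105032617: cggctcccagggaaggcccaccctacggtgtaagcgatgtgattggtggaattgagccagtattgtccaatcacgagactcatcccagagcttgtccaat
Mgst3, chr1:167393842-167393941: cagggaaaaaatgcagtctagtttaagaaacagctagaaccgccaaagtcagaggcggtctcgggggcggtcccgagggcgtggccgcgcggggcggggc

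Levels of different genes were compared as CPM, the counts scaled to a common library size, per kb of the gene length in the table. Gpx4, which reduces lipid peroxides in membranes, had the highest level of the 40 over all libraries (320 CPM per kb). In NTG hearts, however, Gpx3 stood above it at 348 against 314 CPM per kb, whereas in TG hearts Gpx4 stood at 327 and Gpx3 at 179. Mgst3 moved from rank 7 in NTG (99.4 CPM per kb) to rank 3 in TG (168 CPM per kb), and Sod3 from rank 14 to rank 26. The cystine importer Slc7a11, with 1 to 11 counts in each library and 0.0265 CPM per kb, was the lowest and was not tested. The level of Sod2 per length is low for its counts because its deposited length is 10008 bases.

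**Figure D2:**
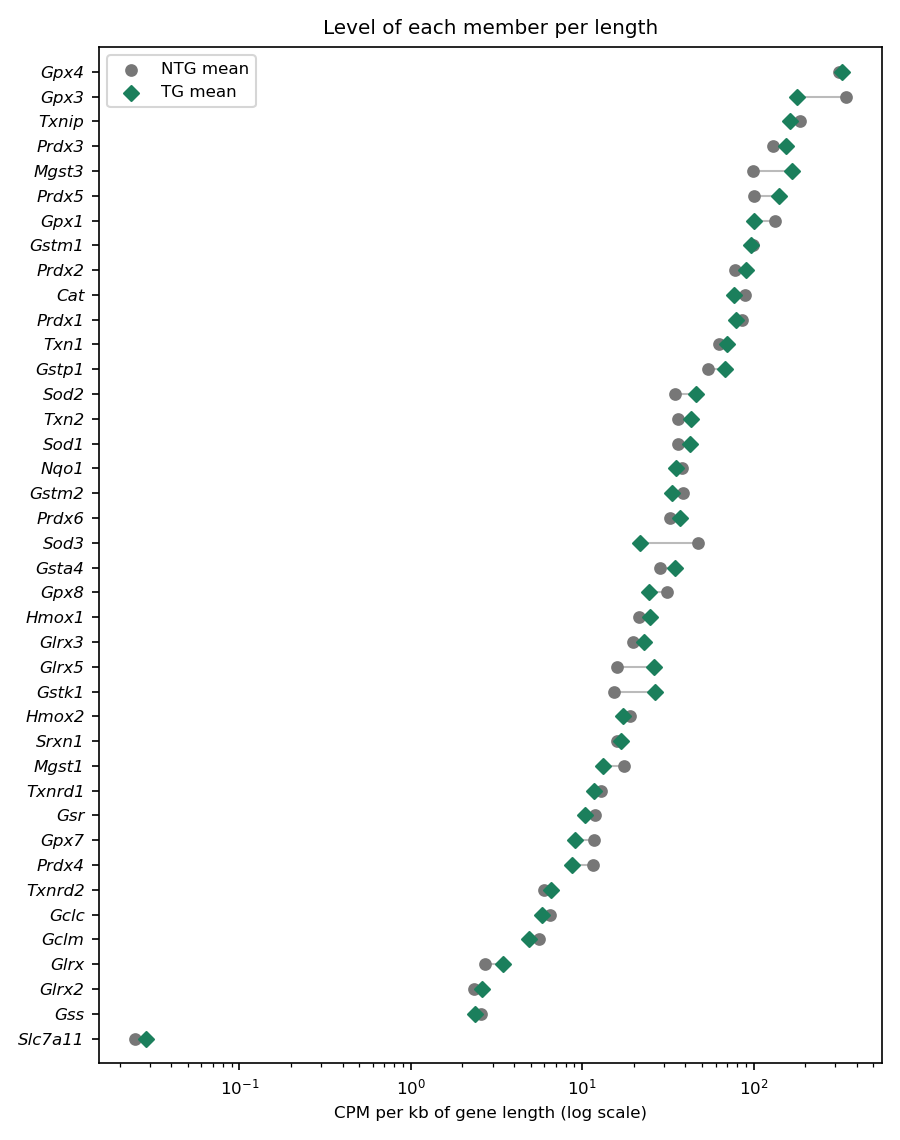
Mean level of each of the 40 members in NTG and TG in CPM per kb of gene length, on a log axis, ordered by the mean over all libraries. The widest gaps between the groups are those of Sod3 and Gpx3, lower in TG, and Gstk1, Mgst3 and Glrx5, higher in TG.

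Among the enzymes that dispose of superoxide, the secreted Sod3 differed most between the groups. Sod3 (ENSMUSG00000072941, chr5:52363791-52371418, + strand), which acts in the extracellular matrix, measured 109, 239 and 183 CPM in NTG 1, NTG 2 and NTG 3 and 72.4, 92.7 and 77.7 CPM in TG 1, TG 2 and TG 3. All TG libraries lay below all NTG libraries, and NTG 1 was the closest to them. The log2 fold change was -1.13 ± 0.27 (SE), with an unadjusted p of 0.00418 and an adjusted p of 0.196 in edgeR and an adjusted p of 0.00265 in DESeq2. Without NTG 1 it was -1.38 with an adjusted p of 0.0149 in edgeR, and over the other libraries left out singly it lay between -1.24 and -0.85. DESeq2 called Sod3 without NTG 1, NTG 2 or TG 2 and did not without NTG 3, TG 1 or TG 3.

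Mitochondrial Sod2, the manganese enzyme of the matrix, measured 425, 285 and 340 CPM in NTG 1, NTG 2 and NTG 3 and 507, 384 and 498 CPM in the 3 TG libraries. NTG 1 exceeded TG 2, so the groups overlapped, and the log2 fold change of 0.40 ± 0.18 had an unadjusted p of 0.0548 in edgeR. Without NTG 1 it was 0.57 with an unadjusted p of 0.00963 and an adjusted p of 0.0807 in edgeR, and DESeq2 then called Sod2 (adjusted p = 0.014), whereas without NTG 2 it was 0.27 (unadjusted p = 0.135, edgeR). Cytosolic Sod1 showed a smaller difference in the same direction (0.24 ± 0.12), with overlapping libraries. Catalase (Cat), the peroxisomal enzyme that splits hydrogen peroxide, measured 232, 198 and 264 CPM in NTG and 206, 202 and 191 CPM in TG. Its difference of -0.21 ± 0.12 did not pass the test (unadjusted p = 0.131, edgeR), and it was -0.10 without NTG 3 and -0.31 without NTG 2.

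Of the 5 glutathione peroxidases, 4 had a lower mean in TG. Gpx3 (ENSMUSG00000018339, chr11:54902453-54910377, + strand), the secreted peroxidase of plasma and extracellular space, measured 549, 681 and 661 CPM in NTG 1, NTG 2 and NTG 3 and 302, 332 and 338 CPM in TG 1, TG 2 and TG 3. Every TG library was far below every NTG library, with a TG level 0.514 times that of NTG. The log2 fold change was -0.96 ± 0.13, with the smallest unadjusted p of the 39 members (7.6e-05) but an adjusted p of 0.196 in edgeR, and an adjusted p of 1.05e-09 in DESeq2. When single libraries were dropped the value stayed between -1.05 and -0.90, and DESeq2 made the same call for Gpx3 in all 6 such fits.

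Gpx1, the cytosolic and mitochondrial peroxidase, measured 151, 235 and 186 CPM in NTG and 142, 143 and 149 CPM in TG. The TG libraries lay close together and all below NTG, with a log2 fold change of -0.40 ± 0.16 and an unadjusted p of 0.0321 in edgeR (adjusted p = 0.231). It was called in edgeR once NTG 1 was left out (-0.55, adjusted p = 0.0449) and shrank to -0.23 without NTG 2 (unadjusted p = 0.0857). Gpx8, a peroxidase of the endoplasmic reticulum (ER), measured 31.4, 34.5 and 31.6 CPM in NTG and 22.4, 27.4 and 27.3 CPM in TG. Its groups did not overlap, and its log2 fold change was -0.34 ± 0.11 (unadjusted p = 0.017, edgeR).

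Gpx7, also of the ER, had a similar mean difference (-0.36 ± 0.21) with overlapping libraries. That difference was -0.52 without NTG 1 (unadjusted p = 0.0235, edgeR) and -0.23 without TG 3 (unadjusted p = 0.339, edgeR). Gpx4 by contrast measured 585, 491 and 549 CPM in NTG and 598, 514 and 576 CPM in TG, which is a log2 fold change of 0.06 ± 0.13. The sign of that small value turned with the scaling, at -0.03 when only library size was used.

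Of the 6 peroxiredoxins, most of which reduce peroxides through thioredoxin, Prdx5 differed most. Prdx5, found in mitochondria, peroxisomes and cytosol, measured 240, 189 and 218 CPM in NTG and 324, 260 and 316 CPM in TG. All TG libraries were higher, with a log2 fold change of 0.48 ± 0.13 and an unadjusted p of 0.00757 in edgeR. The adjusted p was 0.196 in edgeR and 0.0381 in DESeq2, where the fold change just missed the limit for a call. Without NTG 1 it was 0.56, with an adjusted p of 0.0581 in edgeR, and DESeq2 called Prdx5 without NTG 1 (adjusted p = 0.005) or TG 2. Reads of Prdx5 could in part stem from Trmt112, which overlaps it on the other strand with a mean of 273 counts beside 4170.

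Mitochondrial Prdx3, which clears most of the peroxide of the matrix, measured 229, 162 and 187 CPM in NTG and 251, 193 and 236 CPM in TG. The groups overlapped through NTG 1 (0.23 ± 0.16, unadjusted p = 0.17, edgeR), and the value was 0.37 without NTG 1 (unadjusted p = 0.0323) and 0.12 without NTG 2. Prdx4, the peroxiredoxin of the secretory pathway, went the other way, at 22.2, 25.5 and 25 CPM in NTG and 17.9, 21.7 and 15.6 CPM in TG. Its libraries did not overlap, and the log2 fold change was -0.40 ± 0.14 (unadjusted p = 0.023, edgeR).

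The cytosolic Prdx2 (0.21) and Prdx6 (0.19) had slightly higher means in TG and Prdx1 a slightly lower mean (-0.12), all with overlapping libraries. With single libraries left out, Prdx2 ran from 0.14 (without NTG 2) to 0.29 (without TG 2). Prdx6 ran from 0.10 (without NTG 2) to 0.30 (without NTG 1), and Prdx1 from -0.18 (without NTG 3) to -0.03 (without NTG 1). Srxn1, the sulfiredoxin that repairs overoxidised peroxiredoxins, was at 0.06 ± 0.16, and at -0.12 without TG 3. Prdx2 overlaps Junb on the other strand, a gene with a mean of 1959 counts beside 4142, and the strand setting of the counting is not given in the sources used here.

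**Figure D3:**
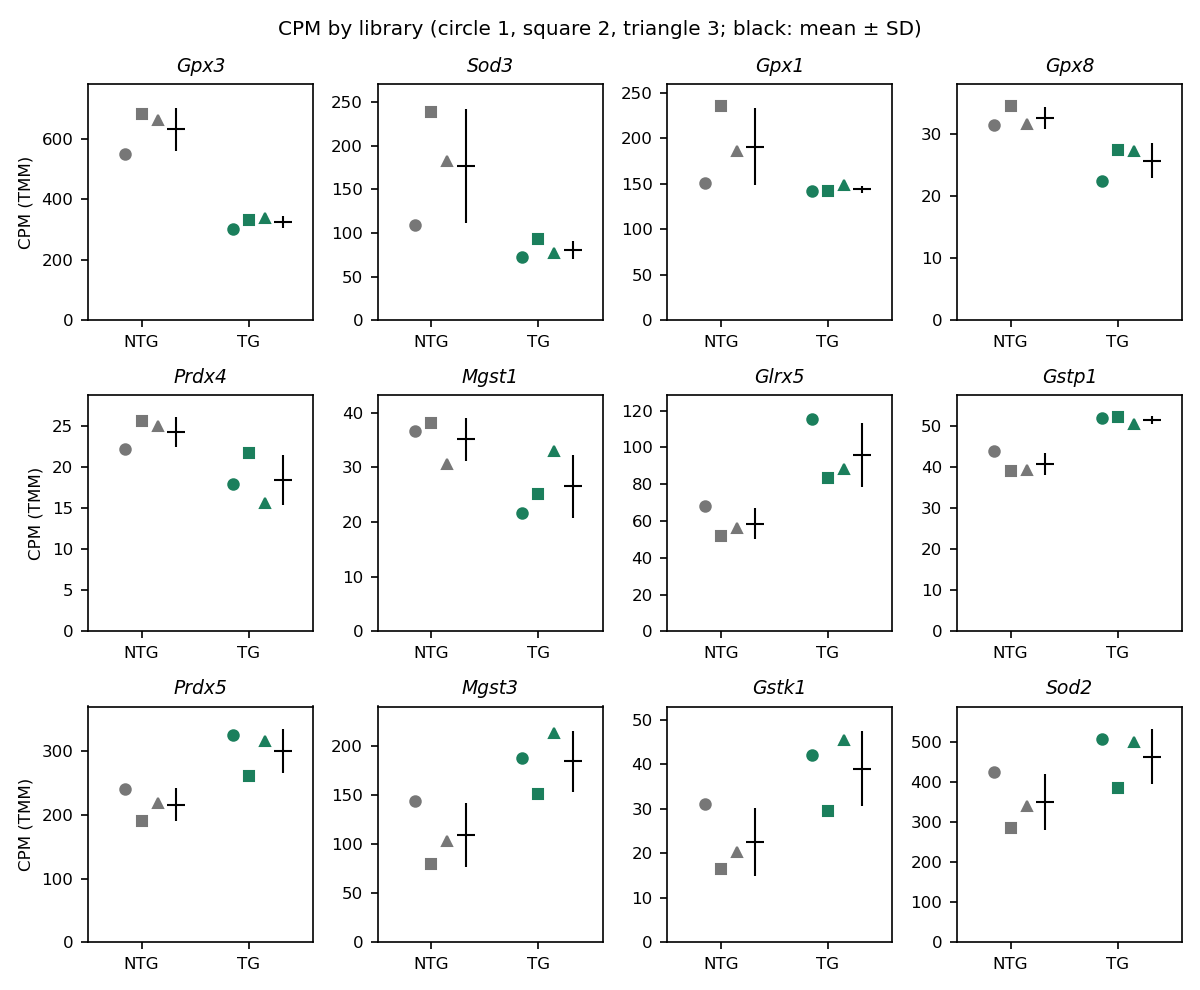
CPM in each NTG and TG library for 12 members, with the mean ± SD of the 3 libraries in black and each vertical axis starting at 0. Gpx3 and Sod3 separate the groups downwards and Glrx5 and Gstp1 upwards, whereas Sod2, Gstk1 and Mgst1 overlap.

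In the thioredoxin system no member reached an unadjusted p under 0.05. Txn2, the mitochondrial thioredoxin, measured 174, 129 and 153 CPM in NTG and 185, 165 and 196 CPM in TG, overlapping through NTG 1 (0.26 ± 0.13, unadjusted p = 0.0817, edgeR). Without NTG 1 it was 0.37 (unadjusted p = 0.0199) and without NTG 2 it was 0.15. Txnrd2, its reductase, measured 28.7, 22.5 and 27.6 CPM in NTG and 32.6, 23.8 and 30.7 CPM in TG (0.14 ± 0.15), and the value ran from 0.04 without NTG 2 to 0.27 without TG 2. The Txnrd2 value is uncertain, because the counting may not have separated the strands.

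Txnip, the inhibitor of thioredoxin, was the most highly expressed of this system per length. It measured 533, 554 and 650 CPM in NTG and 515, 528 and 483 CPM in TG, a small difference without overlap (-0.19 ± 0.13, unadjusted p = 0.179, edgeR) that was -0.10 without NTG 3. The cytosolic Txn1 was likewise separated but small (0.17 ± 0.09), with TG higher, and the cytosolic reductase Txnrd1 was separated with TG lower (-0.15 ± 0.09).

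The genes of glutathione supply showed small differences, all with a lower mean in TG. Gclc and Gclm, the subunits of the rate-limiting ligase, Gss, which completes the tripeptide, and Gsr, which reduces it again, had log2 fold changes of -0.15, -0.19, -0.11 and -0.20, and none reached an unadjusted p under 0.05. With single libraries left out, Gss ran from -0.26 (without NTG 1) to 0.07 (without NTG 3), so its direction was not fixed, and its reads may be shared with the overlapping Acss2. Gsr ran from -0.31 (without NTG 1) to -0.05 (without NTG 2). Gclm, with the smallest p of these, measured 32.9, 35.2 and 36.8 CPM in NTG and 30.2, 27.2 and 34.8 CPM in TG. Gsr, the highest of these per length, measured 27.6, 38.9 and 31.7 CPM in NTG and 30.8, 25.5 and 29.5 CPM in TG. The groups overlapped for both genes.

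All 4 glutaredoxins had a higher mean in TG, and 3 of them (Glrx, Glrx2 and Glrx5) did so without overlap of the libraries, which 11.2% of all genes also did. Glrx5 (ENSMUSG00000021102, chr12:105032688-105042906, + strand), which serves iron-sulfur cluster assembly in mitochondria rather than peroxide removal, measured 67.9, 51.7 and 56.3 CPM in NTG and 116, 83.6 and 88.5 CPM in TG. The log2 fold change was 0.71 ± 0.15, with an unadjusted p of 0.00171 and an adjusted p of 0.196 in edgeR and an adjusted p of 0.00741 in DESeq2. The highest library, TG 1, weighed on this value, which was 0.55 without it and 0.83 without NTG 1. DESeq2 called Glrx5 only in the fits without NTG 1 and without TG 2 among the 6 fits with a library left out.

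Mitochondrial Glrx2 measured 21, 21.7 and 18.6 CPM in NTG and 22.1, 22.9 and 23.9 CPM in TG, a narrow gap (0.17 ± 0.11, unadjusted p = 0.156, edgeR) that shrank to 0.10 without NTG 3. The cytosolic Glrx measured 15, 15.5 and 13.9 CPM in NTG and 20.2, 16.2 and 20.1 CPM in TG (0.35 ± 0.13, unadjusted p = 0.029, edgeR). Glrx3, which handles iron-sulfur clusters in the cytosol, measured 110, 91.9 and 94.5 CPM in NTG and 118, 106 and 119 CPM in TG, with NTG 1 above TG 2 (0.21 ± 0.10).

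Of the stress-inducible genes, the quinone reductase Nqo1 measured 65.9, 39 and 73.9 CPM in NTG and 53.6, 57.7 and 51.9 CPM in TG. The TG values fell within the wide NTG range (-0.13 ± 0.22), and the sign turned without NTG 3 (0.05). Hmox1, the inducible haem oxygenase, varied within both groups (0.21 ± 0.30), and its value ran from -0.10 without TG 3 to 0.45 without NTG 2. Hmox2, the constitutive form, measured 35.1, 44.2 and 46.8 CPM in NTG and 40.2, 37.5 and 37.2 CPM in TG (-0.13 ± 0.12), with -0.25 without NTG 1 and -0.05 without NTG 3. It overlaps Cdip1 on the other strand.

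Among the glutathione S-transferases, Mgst3 and Gstk1 had the largest differences. Mgst3 (ENSMUSG00000026688, chr1:167371966-167393841, - strand), a membrane-bound transferase and peroxidase, measured 144, 79.8 and 103 CPM in NTG and 188, 151 and 213 CPM in TG. TG 2 lay just above NTG 1, and the other libraries were well apart. The log2 fold change was 0.76 ± 0.23, with an unadjusted p of 0.0112 and an adjusted p of 0.203 in edgeR and an adjusted p of 0.0345 in DESeq2. It was 1.01 without NTG 1, with an adjusted p of 0.0279 in edgeR, and 0.57 without NTG 2. With a library left out, DESeq2 called Mgst3 in the fits without NTG 1 or TG 2 and in no other.

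Gstk1, the kappa-class transferase of mitochondria and peroxisomes, measured 31, 16.4 and 20.2 CPM in NTG and 42, 29.5 and 45.5 CPM in TG. NTG 1 exceeded TG 2, and the log2 fold change of 0.79 ± 0.26 had an unadjusted p of 0.0182 in edgeR (adjusted p = 0.213). Without NTG 1 Gstk1 was called (1.09, adjusted p = 0.0331, edgeR). Gstp1, the pi-class transferase, had narrow groups at 43.9, 39.1 and 39.2 CPM in NTG and 51.9, 52.1 and 50.4 CPM in TG, which did not overlap.

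The log2 fold change of Gstp1 was 0.34 ± 0.09, with an unadjusted p of 0.00453 and an adjusted p of 0.196 in edgeR, and it stayed between 0.31 and 0.39 with any library left out. Its near copy Gstp2 had few reads, and how reads shared by the copies were counted is not given. Mgst1, of the outer mitochondrial membrane and ER, was lower in TG on average (-0.40 ± 0.17, unadjusted p = 0.041, edgeR), with overlap. The remaining transferases Gsta4 (0.29), Gstm1 (-0.04) and Gstm2 (-0.21) did not pass an unadjusted p of 0.05, and Gstm1 and Gstm2 share near-identical sequence. The log2 fold change of Gstm1 ran from -0.17 (without NTG 2) to 0.05 (without TG 2), so its sign was not fixed. That of Gsta4 ran from 0.16 (without TG 3) to 0.43 (without NTG 1). Gstm2 lay lower in every TG library, and was -0.28 without NTG 2 (unadjusted p = 0.0149, edgeR).

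Set by place, the 6 mitochondrial members all had a higher mean in TG, with log2 fold changes of 0.14 to 0.71 and a median of 0.25. Of the 6, only Glrx5 (16.7%) reached an unadjusted p under 0.05, beside 8.83% of all genes, and only Glrx2 and Glrx5 (33.3%) had libraries without overlap, beside 11.2%. The 6 members found in mitochondria and elsewhere were split into 3 higher and 3 lower (median -0.07). Of the 27 tested members that work mainly elsewhere, 11 were higher and 16 lower, with a median of -0.12. That median turned to 0.0072 with 14 higher when NTG 3 was left out. The 6 of 6 held in every alternative run, with medians from 0.17 to 0.37. With the members found in both places added, 9 of 12 were higher and the median was 0.20.

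Nuclear genes of mitochondrial metabolism that are not antioxidant enzymes, such as the respiratory subunits Ndufv1 and Sdhb and citrate synthase (Cs), were set beside these 6. All 15 of that reference list had a higher mean in TG, with a median of 0.37, and 7 had an unadjusted p under 0.05 in edgeR. As a mean of log2 CPM centred on the 6 libraries, the mitochondrial members stood at 0.03, -0.33 and -0.18 in NTG 1, NTG 2 and NTG 3 and at 0.28, -0.02 and 0.22 in TG 1, TG 2 and TG 3. NTG 1 thus lay above TG 2, and the reference list had the same order at its crossing point, with 0.04 in NTG 1 and 0.02 in TG 2.

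Measured against the reference list within each library, the mitochondrial members stood 0.13 above it in NTG 2, 0.01 above in NTG 3 and at -0.0021 in NTG 1, and at -0.03, -0.04 and -0.07 in TG 1, TG 2 and TG 3. The mean difference between the groups was thus smaller for the mitochondrial antioxidant genes than for the reference list in these libraries, and this was not tested. The 6 cardiomyocyte markers also all had a higher mean in TG, with a summed level of 15640 to 26850 CPM in NTG and 25410 to 31350 CPM in TG. Of other cell types, 4 of 5 endothelial markers had a higher mean in TG, with sums of 1397 to 1626 CPM in NTG and 1516 to 1668 CPM in TG. Smooth muscle markers, 3 of 4 higher, summed to 130 to 155 CPM in NTG and 202 to 225 CPM in TG. Transcripts of the mitochondrial genome took 13.4% to 19.2% of counts in NTG and 15.95% to 21.5% in TG. The part of these in the result was not tested.

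**Figure D4:**
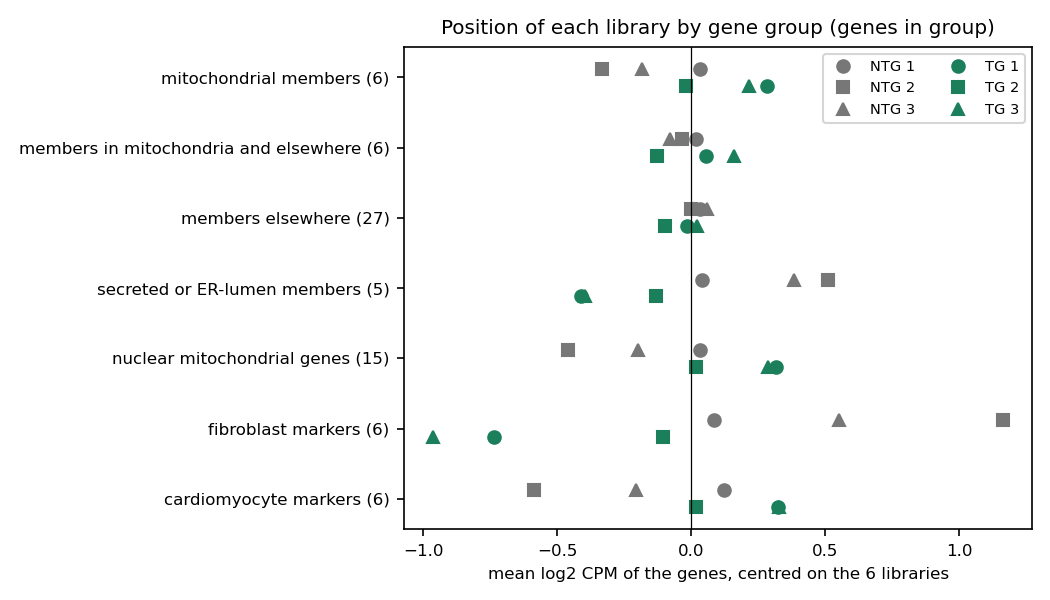
Mean log2 CPM of each gene group in each library, centred on the 6 libraries, for members by place, nuclear mitochondrial genes and markers of fibroblasts and cardiomyocytes. NTG 1 and TG 2 lie near 0 and close together in most groups, and the order of libraries for mitochondrial members follows that of nuclear mitochondrial genes.

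The 5 members whose proteins are secreted or act in the lumen of the ER, Sod3, Gpx3, Prdx4, Gpx7 and Gpx8, had a lower mean in TG (median -0.40). This grouping was made after the values were seen and is only a description. It leaves out other enzymes of the ER, which did not share a direction, with Mgst3 at 0.76, Hmox1 at 0.21, Hmox2 at -0.13 and Mgst1 at -0.40. The group stood at 0.04, 0.51 and 0.39 in NTG 1, NTG 2 and NTG 3 and at -0.41, -0.13 and -0.40 in TG 1, TG 2 and TG 3 on the centred log2 scale.

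All 6 fibroblast markers (Col1a1, Col1a2, Col3a1, Pdgfra, Dcn and Postn) were lower in TG as well, with a summed level of 4520 to 10660 CPM in NTG and 2184 to 3835 CPM in TG and none at 0. The library with the highest fibroblast sum, NTG 2, also had the highest Sod3, Gpx3, Prdx4, Gpx7 and Gpx8. NTG 1 had the lowest of the NTG libraries for the sum and for these genes. Its Gpx8, at 31.4 CPM, was nearly level with that of NTG 3 at 31.6 CPM. Within TG, the library with the highest sum, TG 2, had the highest Sod3, Prdx4, Gpx7 and Gpx8. Its Gpx8, at 27.4 CPM, was nearly level with that of TG 3 at 27.3 CPM. Gpx3 was highest in TG 3, which had the lowest sum. On the centred log2 scale the secreted and ER-lumen members less the fibroblast markers came to -0.66 in NTG 2 and 0.57 in TG 3. The 6 macrophage markers had a lower mean in TG, with sums of 863 to 1547 CPM in NTG and 624 to 915 CPM in TG. Red cell transcripts summed to 1310 to 2247 CPM in NTG and 762 to 908 CPM in TG, and neutrophil markers to 9.15 to 241 CPM and 8.36 to 16.4 CPM. The part of these cells in the lower levels was not tested.

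**Figure D5:**
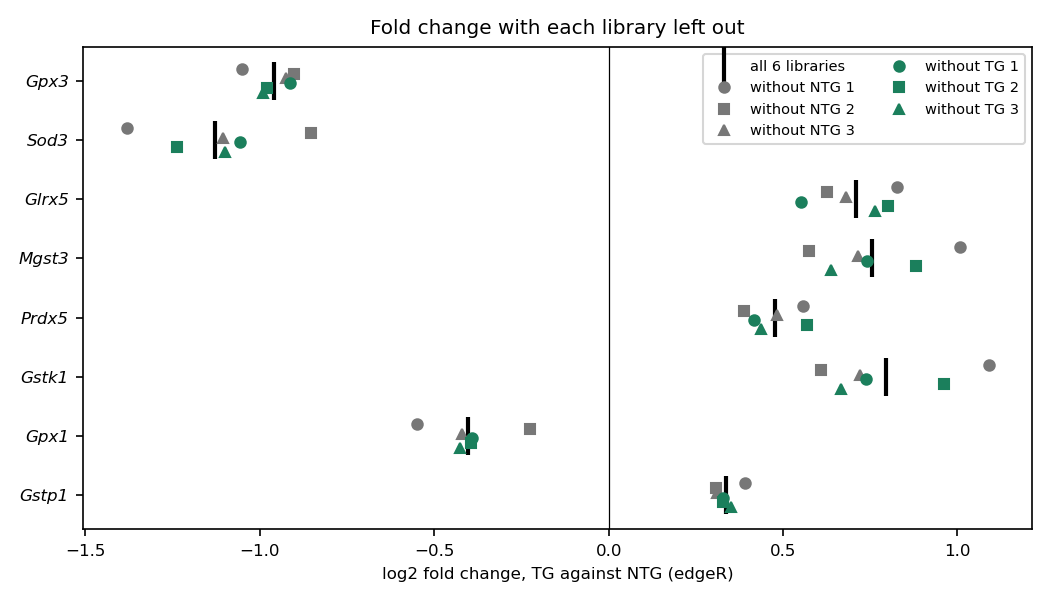
Log2 fold change of TG against NTG from edgeR for 8 members, with all 6 libraries (bar) and with each library left out (points). Gpx3 stays between -1.05 and -0.90 and Gstp1 between 0.31 and 0.39, whereas Gstk1, Mgst3 and Sod3 move most when NTG 1 or NTG 2 is left out.

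Beyond the members, 84 further genes of the same systems were examined, of which 76 were tested and 0 were called by edgeR. Of these 76, 41 had a higher and 35 a lower mean in TG, and the median log2 fold change was 0.01. An unadjusted p under 0.05 was found for 9 higher (11.8%) and 8 lower (10.5%), close to the 8.83% and 9.76% of all genes. DESeq2 called 1 higher, Idh2, and 1 lower, Mt1, beside 1.54% and 2.4% of all genes. Of the 9 regulators of the Nrf2 response, 5 had a higher and 4 a lower mean in TG, and 1, Maff, had an unadjusted p under 0.05. Maff, a small Maf partner of Nrf2 named here after its values were seen, lay lower in every TG library (-0.40 ± 0.14, unadjusted p = 0.0229, edgeR). Nfe2l2, which encodes Nrf2, measured 115, 131 and 103 CPM in NTG and 108, 99.8 and 103 CPM in TG (-0.17 ± 0.11). With a library left out its value ran from -0.25 (without NTG 3) to -0.08 (without NTG 2). The Nrf2 repressor Keap1 lay slightly higher in every TG library, at 44.6, 44 and 46.6 CPM in NTG and 52.2, 47.1 and 59.7 CPM in TG (0.23 ± 0.11, unadjusted p = 0.0559, edgeR). The Keap1 value ran from 0.14 (without TG 3) to 0.31 (without TG 2).

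Of the enzymes that supply NADPH, Nnt, the mitochondrial transhydrogenase that is partly deleted in the C57BL/6J strain, was close to absent at 0.455 to 1.52 CPM in the 6 libraries. Mitochondrial Idh2, named after its values were seen, measured 1261, 638 and 917 CPM in NTG and 1712, 1385 and 1539 CPM in TG. Its log2 fold change was 0.72 ± 0.24, with an unadjusted p of 0.018 in edgeR and an adjusted p of 0.0495 in DESeq2.

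The 3 pathway genes with the smallest p among those higher in TG were Ccs, the copper chaperone of Sod1 (log2 fold change 0.40), Msrb2, a mitochondrial methionine sulfoxide reductase (0.55), and the theta-class transferase Gstt1 (0.55), all without overlap of libraries. Their unadjusted p in edgeR was 0.0094, 0.0128 and 0.016. Among those lower in TG they were Mt1, Selenom and Selenof. The metallothionein Mt1 measured 282, 546 and 362 CPM in NTG and 199, 194 and 228 CPM in TG (-0.94 ± 0.23, unadjusted p = 0.00379 in edgeR and adjusted p = 0.00577 in DESeq2). Selenom and Selenof, both selenoproteins of the ER, had log2 fold changes of -0.35 and -0.40, again without overlap, with an unadjusted p of 0.0053 and 0.00851 in edgeR.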

How the data were processed

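Poly-A selected RNA-seq of LV tissue was available for 3 TG and 3 NTG libraries. The values the authors deposited are raw read counts per gene, 1 column per library, without normalization or pooling, and the number of sample columns not matched to a library was 0. The authors cleaned the reads, mapped them and counted them with featureCounts. The submitters' processing notes name HISAT2, DESeq2 and GRCh38. GRCh38 is a human build, yet the identifiers are of mouse, and 39 of the 40 members and 98.3% of 54495 genes had the position given for GRCm38 in GENCODE release M21, so positions are given in GRCm38. The strand setting and the handling of reads with several matches are not given in the sources used here.

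The counts were fitted with edgeR 4.0.16 in R 4.3.3 (TMM, filterByExpr by group, robust quasi-likelihood test). P-values were adjusted by Benjamini-Hochberg across all 14774 genes, and a call needed an adjusted p under 0.05 together with a difference of more than 0.5 on the log2 scale. The SE is the size of the log2 fold change divided by the square root of the F statistic. CPM are TMM-normalized, and log2 CPM used a prior count of 2. DESeq2 1.42.0, which gave no adjusted p for 866 genes, and voom in limma 3.58.1 were alternatives, together with other scalings, filters, a likelihood-ratio test, a replicate block and each library left out. The labels do not say how replicates were raised, so p-values measure the spread between these libraries. Total counts differed little between libraries, and the SE of each gene holds both counting error and the spread between hearts.

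The members and lists were chosen with earlier results of these data known. Named genes were the 6 mitochondrial members, the 5 smallest unadjusted p in each direction, for each role the member highest per length and the one with the smallest p, and of the pathway list Nnt, Nfe2l2, Keap1 and the 3 smallest p in each direction. The grouping of secreted and ER-lumen members, and DESeq2 with each library left out, were chosen after seeing the data. Promoter sequences are from RefSeq (GRCm38.p6).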

Additional observations from a re-analysis of the deposited data

How the results depend on the processing

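Against 0 members called in the edgeR test, 2 were called without a filter on low counts (Gpx3 and Glrx5), 4 by DESeq2, 4 by edgeR's likelihood-ratio test, and 0 to 6 with a library left out, the 6 being without NTG 1 (Gpx3, Sod3, Gpx1, Glrx5, Mgst3 and Gstk1). For the pathway list, the likelihood-ratio test called 1, DESeq2 called 2, and 0 to 4 were called with a library left out, the 4 again without NTG 1 (Idh2, Mt1, Msrb2 and Gstt1). Over all genes, 0 calls became 583 by DESeq2, 545 by edgeR's likelihood-ratio test, 232 without the filter and 836 without NTG 1. The 4 DESeq2 calls became 1 to 8 with a library left out, with 8 without NTG 1 (of 1773 genes called), 6 without TG 2 (of 778), 2 without NTG 2 and 1 (Gpx3) without NTG 3, TG 1 or TG 3, each of these last 4 among 96 to 179 genes called. The median of members working mainly elsewhere was -0.12, and -0.20 with scaling by library size alone, which moved the median of all genes to -0.09. With a library left out it ran from -0.12 to 0.0072, the positive value being without NTG 3. Gpx4 turned to -0.027 with scaling by library size and ran from -0.011 (without NTG 2) to 0.12 with a library left out, and Nqo1 ran from -0.36 to 0.052 (without NTG 3). The causes were not tested. Replicate numbers are shared by the groups, but same-numbered libraries did not deviate together (correlations 0.08, 0.17 and -0.25), and not every library correlated best with its own number. With the replicate block 3 members (Gpx3, Sod3 and Glrx5) and 231 genes were called.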

Other observations

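Glo1, the glyoxalase that detoxifies methylglyoxal with glutathione, was named after its values were seen. It measured 147, 64.5 and 76.2 CPM in NTG 1, NTG 2 and NTG 3 and 110, 68.1 and 112 CPM in TG 1, TG 2 and TG 3. The libraries thus spread widely within both groups, and the log2 fold change was 0.01 ± 0.34. That value was 0.46 without NTG 1 and -0.21 without NTG 2.

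Selenop, the secreted selenium carrier, also chosen after its values were seen, measured 383, 520 and 391 CPM in NTG and 329, 340 and 363 CPM in TG, with a log2 fold change of -0.32 ± 0.15 and an unadjusted p of 0.0575 in edgeR. Its libraries did not overlap. The iron-storage chain Fth1 differed by 0.15 ± 0.16 and Ftl1 by -0.29 ± 0.17, both with overlapping libraries.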
